A study of Mus musculus with 8 samples.

Results

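Genes known from red pulp macrophages of the spleen, from iron and haem recycling and from the complement protein C1q, 10 in all, were followed across 8 mouse libraries of sorted CD8 T cells. They are Spic, Vcam1, Hmox1, Slc40a1, Adgre1, Cd68, Csf1r, C1qa, C1qb and C1qc, and all 10 were rows of the table of 13204 genes. They were chosen by symbol, with their levels in FcgRIIB-positive and FcgRIIB-negative cells already known, so the comparison of these groups is given for them as a description and without a test. In this set were 4 libraries of FcgRIIB-positive and 4 of FcgRIIB-negative cells, both sorted as CD44hi, Thy1.1+ and CD8+ OT-I T cells, which carry a transgenic receptor for ovalbumin. Both groups came from mice that received 1000000 OT-I cells 24 hours before an ovalbumin-expressing skin graft, with spleens taken on day 14 after grafting. Each of the 4 replicate numbers marks 1 pool of 3 spleens that gave a library of 1000 cells to each group, while the sources used here do not give the age or strain of the recipient mice.

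Red pulp macrophages take up aged red blood cells, break down their haem and return the iron to the blood. The transcription factor Spi-C is needed for their development, haem oxygenase 1 opens the haem ring, and ferroportin carries the freed iron out of the cell. C1q, made in the spleen largely by macrophages and dendritic cells, is built from A, B and C chains and starts the classical complement pathway on antibody-coated or dying targets. These functions are not the ones CD8 T cells are chiefly known for, and a bulk library does not show which cells held a transcript. Fewer cells of a type and less RNA per cell cannot be told apart in it.

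Depth lay between 3060000 and 22010000 reads per library, with replicates 1 and 2 deeper than replicates 3 and 4 in both groups. Fcgr2b, which codes for the sorted receptor, was at 29.6 to 69.9 RPKM in positive libraries and at 1.82 to 4.82 RPKM in negative libraries. RPKM is the number of reads per kilobase of exon and per 1000000 reads of the library, so it allows levels of different genes to be compared. The 10 genes together took 0.183% to 0.451% of the reads in positive libraries, against 0.0174% to 0.0826% in negative libraries. Each value in a positive library rested on at least 256 reads, and the lowest in a negative library, that of Spic in replicate 4, on 20 reads. The labelled cell type was present by its own genes, since 16 T cell markers summed to 2243 to 4853 RPKM in positive, against 5919 to 9439 RPKM in negative libraries.

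All 10 genes were higher in FcgRIIB-positive than in FcgRIIB-negative cells of the same pool in each of the 4 pools, and for each of them every positive library lay above every negative library. Among all 11946 genes tested, 10.3% were higher in all 4 pools, and 4.61% showed such a separation. Limma called 3.03% of all genes higher and 0.268% lower, and with the pool as a block 7.22% higher and 3.85% lower. These shares are the background for the lists of other genes given later, and nothing is read from them for the 10, because the same contrast was known when the genes were chosen. On the log2(RPKM + 1) scale, on which the change of low values is understated, the differences ran from 2.59 for Slc40a1 to 3.33 for Adgre1 with a median of 2.95, against a median of -0.11 over all genes tested.

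**Figure D1:**
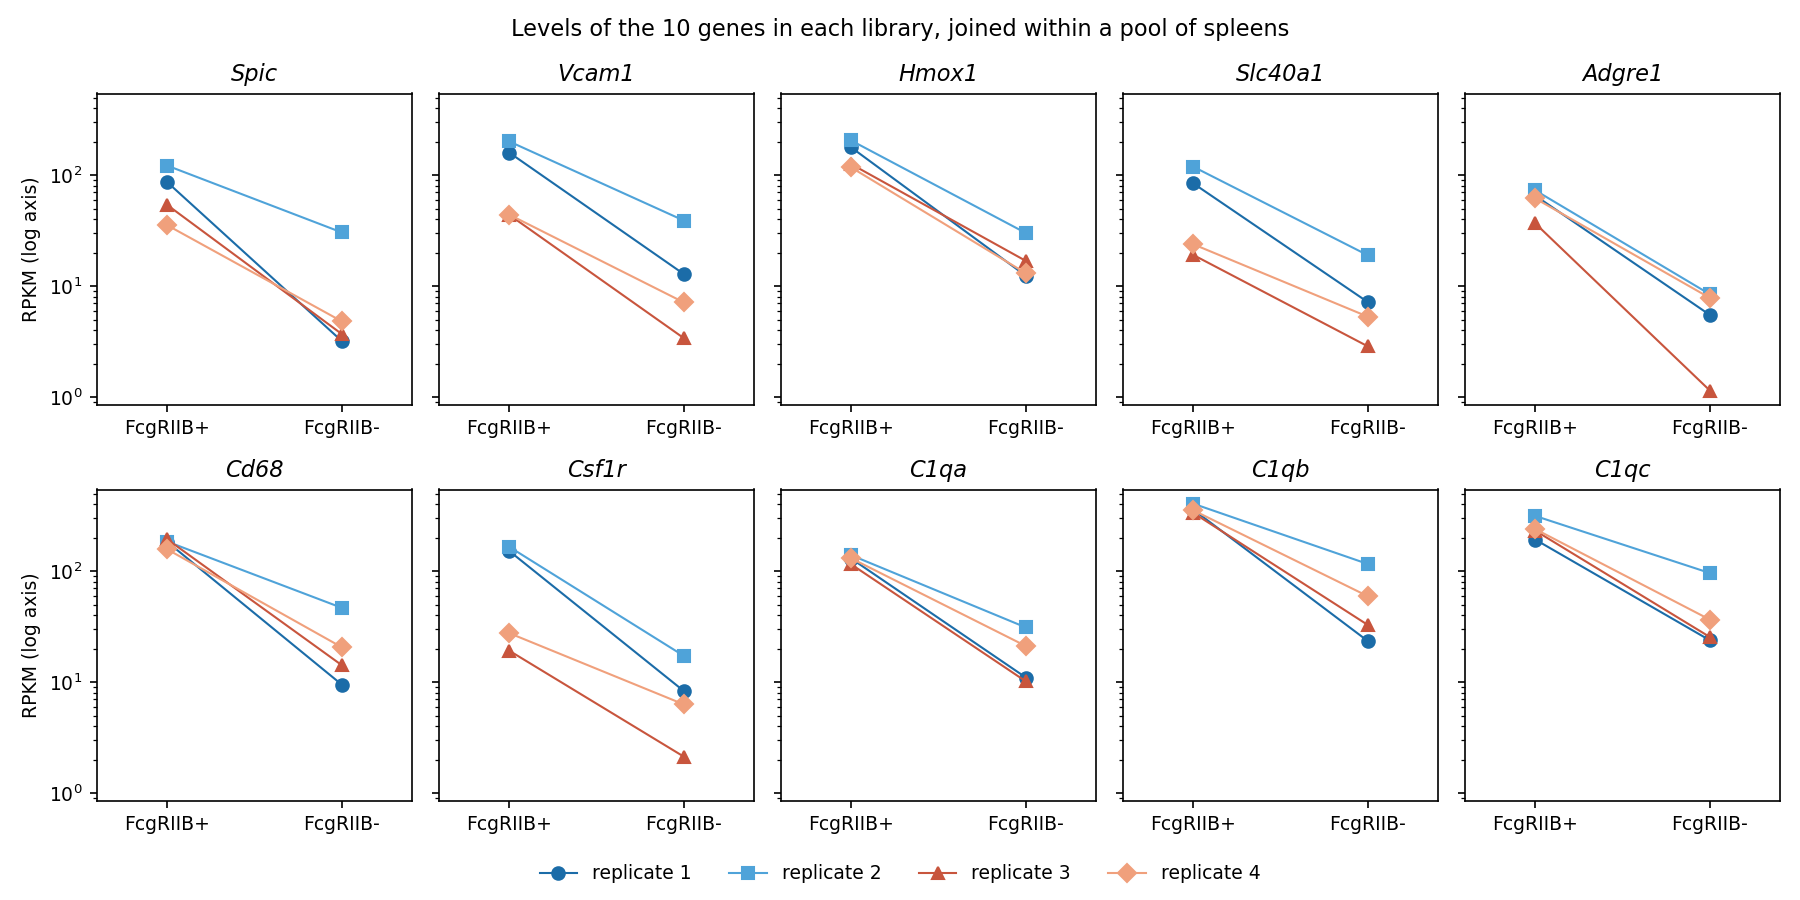
RPKM (log axis) of each of the 10 genes in FcgRIIB-positive (left) and FcgRIIB-negative (right) libraries, with a line joining the libraries of 1 pool of spleens. Every line falls to the right, and replicates 1 and 2 lie far above replicates 3 and 4 for Csf1r, Vcam1 and Slc40a1 in positive libraries, while C1qa, C1qb and Cd68 lie close together there.

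Spic codes for Spi-C, a relative of PU.1 in the ETS family of transcription factors. It had 86.9, 122.2, 54.1 and 35.5 RPKM in positive replicates 1 to 4, against 3.20, 30.5, 3.70 and 4.82 RPKM in negative replicates 1 to 4. Negative replicate 2 was far above the other negative libraries and reached nearly to the lowest positive library. The mean was 74.7 ± 38.2 RPKM in positive, against 10.6 ± 13.3 RPKM in negative libraries (SD, n = 4 each), a log2 fold change of 3.14 (SE 0.62). Within pools the differences were 4.39, 1.97, 3.55 and 2.65 on the log2 scale, so that the smallest was in pool 2.

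Vcam1, an adhesion molecule of red pulp macrophages and of vessel and stromal cells, had 160.3, 201.9, 44.0 and 44.2 RPKM in positive replicates 1 to 4. In negative replicates 1 to 4 it was at 12.8, 39.1, 3.40 and 7.14 RPKM. The groups did not overlap, but positive replicates 3 and 4 stood only slightly above negative replicate 2. The log2 fold change was 2.93 (SE 0.69). Other genes of stromal and endothelial cells were low: of 11 markers of such cells, 7 were in the table, and these summed to 6.60 to 14.6 RPKM in positive, against 0.976 to 23.1 RPKM in negative libraries, with none at 0. Cxcl13, Pdgfrb and Kdr, the most abundant of them, did not exceed 12.2 RPKM in any library.

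Hmox1, which codes for haem oxygenase 1, had 178.4, 205.8, 126.0 and 117.7 RPKM in positive replicates 1 to 4, against 12.4, 30.1, 16.9 and 13.1 RPKM in negative replicates 1 to 4. The lowest positive library was 3.90 times the highest negative one, and the mean was 157.0 ± 42.2 RPKM in positive, against 18.1 ± 8.25 RPKM in negative libraries (SD, n = 4 each). The log2 fold change was 3.09 (SE 0.38), the smallest SE among the 10 genes. Slc40a1, which codes for ferroportin, the iron exporter, had 84.6, 119.5, 19.1 and 23.9 RPKM in positive replicates 1 to 4. It was at 7.18, 19.0, 2.87 and 5.31 RPKM in negative replicates 1 to 4, so that positive replicate 3 barely exceeded negative replicate 2. Its log2 fold change of 2.59 (SE 0.63) was the lowest of the 10. The ratio of Hmox1 to Slc40a1 in RPKM was 2.11, 1.72, 6.58 and 4.93 in positive replicates 1 to 4 and 1.73, 1.59, 5.89 and 2.46 in negative replicates 1 to 4. It thus differed more between replicates than between the groups, with both groups lowest in replicate 2 and highest in replicate 3.

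Adgre1, the gene of the macrophage antigen F4/80, had 65.6, 73.2, 36.9 and 61.8 RPKM in positive replicates 1 to 4, against 5.50, 8.45, 1.15 and 7.83 RPKM in negative replicates 1 to 4. It had the largest separation of the groups, with the lowest positive library at 4.36 times the highest negative one, and the largest log2 fold change at 3.33 (SE 0.46). Cd68 codes for macrosialin, a glycoprotein of late endosomes and lysosomes in phagocytes. It had 184.3, 185.3, 194.4 and 157.9 RPKM in positive replicates 1 to 4, against 9.50, 46.8, 14.2 and 20.6 RPKM in negative replicates 1 to 4, with a log2 fold change of 3.17 (SE 0.45). Positive libraries were nearly level for Cd68, while negative replicate 2 was 3.16 times the mean of the other negative libraries.

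Csf1r codes for the receptor of the growth factors CSF1 and IL-34, on which most tissue macrophages depend. It had 152.6, 166.3, 19.3 and 27.7 RPKM in positive replicates 1 to 4, against 8.32, 17.3, 2.13 and 6.30 RPKM in negative replicates 1 to 4. Its positive libraries spread the most of the 10 genes, with a coefficient of variation of 86.1%, larger than that of 93.4% of the genes tested. The log2 fold change was 2.98 (SE 0.73), with 4.04, 3.20, 2.69 and 1.97 in pools 1 to 4.

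C1qb had the highest RPKM of the 10 genes in all positive libraries and in negative replicates 2, 3 and 4, with C1qc next, and C1qc was highest in negative replicate 1. C1qa was lower, below Cd68 in all positive libraries. C1qa had 130.3, 139.6, 115.6 and 130.9 RPKM in positive replicates 1 to 4, against 11.0, 31.2, 10.2 and 21.2 RPKM in negative replicates 1 to 4. C1qb had 360.1, 406.9, 336.6 and 354.7 RPKM in positive replicates 1 to 4, against 23.5, 116.2, 32.8 and 59.5 RPKM in negative replicates 1 to 4. C1qc had 193.2, 315.3, 232.5 and 240.1 RPKM in positive replicates 1 to 4, against 23.8, 96.4, 25.5 and 36.6 RPKM in negative replicates 1 to 4. The positive libraries were tight for C1qa and C1qb, with coefficients of variation of 7.71% and 8.21% against a median of 42.7% over all genes tested, and looser for C1qc at 20.8%. The log2 fold changes were 2.88 (SE 0.39), 2.89 (SE 0.48) and 2.62 (SE 0.46) for C1qa, C1qb and C1qc.

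The chains enter the C1q protein in equal numbers, and their transcripts were not at equal levels per length. C1qb stood at 2.71 to 2.92 times C1qa in positive libraries and at 2.13 to 3.73 times C1qa in negative libraries. C1qc stood at 1.48 to 2.26 times C1qa in positive libraries and at 1.73 to 3.09 times in negative libraries. The ratio of C1qb to C1qa averaged 2.83 ± 0.10 in positive and 2.97 ± 0.68 in negative libraries (SD, n = 4 each), so the mean differed by less than the spread between negative libraries. The 3 genes lie next to each other on chromosome 4 in the order C1qb, C1qc, C1qa, with no other annotated gene between them in the RefSeq table of GRCm38.p6.

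Start-site windows matched by symbol for 4 of the 10 genes, and these 4 are shown so that the neighbours C1qb and C1qc can be read beside Spic and Cd68. They are RefSeq sequences of GRCm38.p6, 250 bases before to 50 after the start, all read from the minus strand, at chr4:136886151-136886450 (C1qb), chr4:136892865-136893164 (C1qc), chr10:88682974-88683273 (Spic) and chr11:69666121-69666420 (Cd68). Capitals mark AGGAAG and GAGGAA, which hold the GGAA core bound by ETS factors such as Spi-C and PU.1, and TGAGTCA, the site of AP-1 factors, each on either strand. AGGAAG and GAGGAA can overlap.
C1qb: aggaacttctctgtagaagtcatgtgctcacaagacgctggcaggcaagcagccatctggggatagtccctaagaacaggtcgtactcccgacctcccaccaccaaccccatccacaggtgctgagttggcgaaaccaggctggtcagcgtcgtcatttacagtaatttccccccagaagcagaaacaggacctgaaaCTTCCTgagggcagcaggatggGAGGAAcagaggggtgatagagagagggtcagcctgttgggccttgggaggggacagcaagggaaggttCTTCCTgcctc
C1qc: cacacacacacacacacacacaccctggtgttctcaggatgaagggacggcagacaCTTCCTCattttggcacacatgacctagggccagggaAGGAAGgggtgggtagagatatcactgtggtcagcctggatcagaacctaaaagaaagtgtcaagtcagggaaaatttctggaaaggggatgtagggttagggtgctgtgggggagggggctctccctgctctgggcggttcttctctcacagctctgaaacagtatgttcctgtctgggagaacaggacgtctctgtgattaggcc
Spic: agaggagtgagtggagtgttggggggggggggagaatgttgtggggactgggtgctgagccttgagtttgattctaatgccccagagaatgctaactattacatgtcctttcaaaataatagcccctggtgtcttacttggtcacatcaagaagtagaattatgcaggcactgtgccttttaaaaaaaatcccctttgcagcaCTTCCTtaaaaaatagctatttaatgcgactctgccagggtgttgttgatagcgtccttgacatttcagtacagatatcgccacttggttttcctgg
Cd68: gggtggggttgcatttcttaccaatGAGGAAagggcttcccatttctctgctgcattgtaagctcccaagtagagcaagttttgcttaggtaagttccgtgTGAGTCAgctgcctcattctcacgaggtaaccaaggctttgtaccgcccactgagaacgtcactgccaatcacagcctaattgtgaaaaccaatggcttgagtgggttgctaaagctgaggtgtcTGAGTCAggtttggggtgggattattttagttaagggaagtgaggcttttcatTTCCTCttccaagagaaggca
Either ETS motif was present in all 4 windows, and in 46.0% of the 32851 windows of the RefSeq table. AGGAAG alone was in 3 of the 4 and in 35.4% of all windows, and GAGGAA in 3 of the 4 and in 28.3%. TGAGTCA occurred 2 times in the Cd68 window and in none of the other 3, and in 5.20% of all windows. These matches describe the letters of the windows only.

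**Figure D2:**
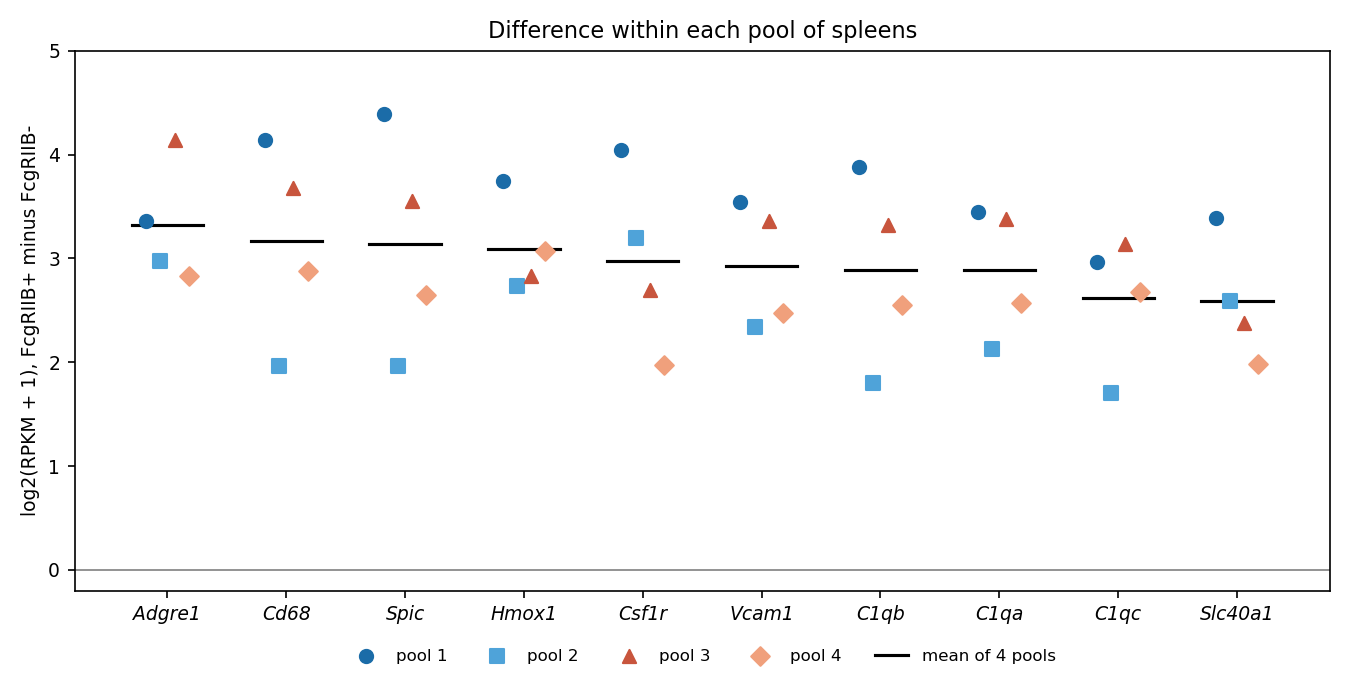
Difference in log2(RPKM + 1), FcgRIIB-positive minus FcgRIIB-negative, within each of the 4 pools of spleens, with black bars for the mean of the pools, for the 10 genes ordered by that mean. All 40 points lie above 0, and pool 2 gave the smallest difference for Spic, Vcam1, Hmox1, Cd68, C1qa, C1qb and C1qc.

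Negative replicate 2 was the highest negative library for all 10 genes, a position it held for 22.3% of all genes tested. It stood at 1.75 times (Adgre1) to 7.81 times (Spic) the mean of the other negative libraries. Positive replicate 2, from the same pool, was the highest positive library for 9 of the 10, the exception being Cd68, and for 28.9% of all genes tested. Of the 7 B lineage markers of the table, 6 were also highest in negative replicate 2 of the negative libraries. Dendritic cell markers were not: 10 of 12 were highest in negative replicate 4, and H2-DMb2 and Cadm1 in negative replicate 2. Negative replicate 4 had the lowest depth, and the share of all genes highest in it was not counted. The sums of stromal and endothelial markers (23.1 RPKM) and of marginal zone macrophage markers (17.0 RPKM) were also highest there among negative libraries. A peak in that library was thus not particular to dendritic cell markers. The 12 dendritic cell markers summed to 32.5, 101.4, 38.6 and 86.9 RPKM in negative replicates 1 to 4. Without H2-DMb2 the other 11 summed to 21.3, 24.3, 17.1 and 63.7 RPKM. The B lineage markers summed to 77.5, 852.2, 199.8 and 124.9 RPKM in negative replicates 1 to 4, with Jchain alone at 431.5 RPKM in negative replicate 2. Lyz2, a lysozyme of macrophages and neutrophils, was at 855.6 RPKM in that library and at 84.3 to 129.9 RPKM in the other negative libraries. Of the other monocyte and neutrophil markers, Ngp, S100a8, S100a9, Retnlg and Csf3r were also highest there among negative libraries. Ly6c2, Ccr2 and Cxcr2 were not. The part of these transcripts in the level of the 10 genes was not tested. Without negative replicate 2 the median log2 fold change of the 10 genes was 3.37.

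Replicates 1 and 2 parted from replicates 3 and 4 for some of the 10 genes and not for others. In positive libraries both replicates 1 and 2 lay above both replicates 3 and 4 for 7 of the 10 genes, against 40.4% of all genes tested; in negative libraries for 3 of the 10, against 26.3%. The mean log2(RPKM + 1) of replicates 3 and 4 minus that of replicates 1 and 2 in positive libraries was -2.73 for Csf1r, -2.18 for Slc40a1 and -2.00 for Vcam1. It was only -0.06 for C1qc, -0.08 for Cd68, -0.13 for C1qa and -0.15 for C1qb. Exon length moved with this contrast in part. Csf1r and Slc40a1 have 5864 and 6966 bases of exon in the authors' table, whereas C1qc, C1qb, C1qa and Cd68 have 1054, 1061, 1082 and 1442 bases. Length did not order the others, since Spic, with 1358 bases, had -1.21, and Vcam1 and Adgre1, with 3758 and 3675 bases, had -2.00 and -0.53. Over all genes tested the median of the same difference in positive libraries was 0.56 for exons under 2000 bases, -0.17 from 2000 bases, -0.33 from 4000 bases and -0.41 from 6000 bases. In negative libraries the same medians were 0.28, -0.13, -0.14 and -0.02, with no steady fall. Each of the 10 genes lay below the median of its length class in both groups. The part of exon length in the difference between replicates was not tested, and labels name no batch behind it.

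**Figure D3:**
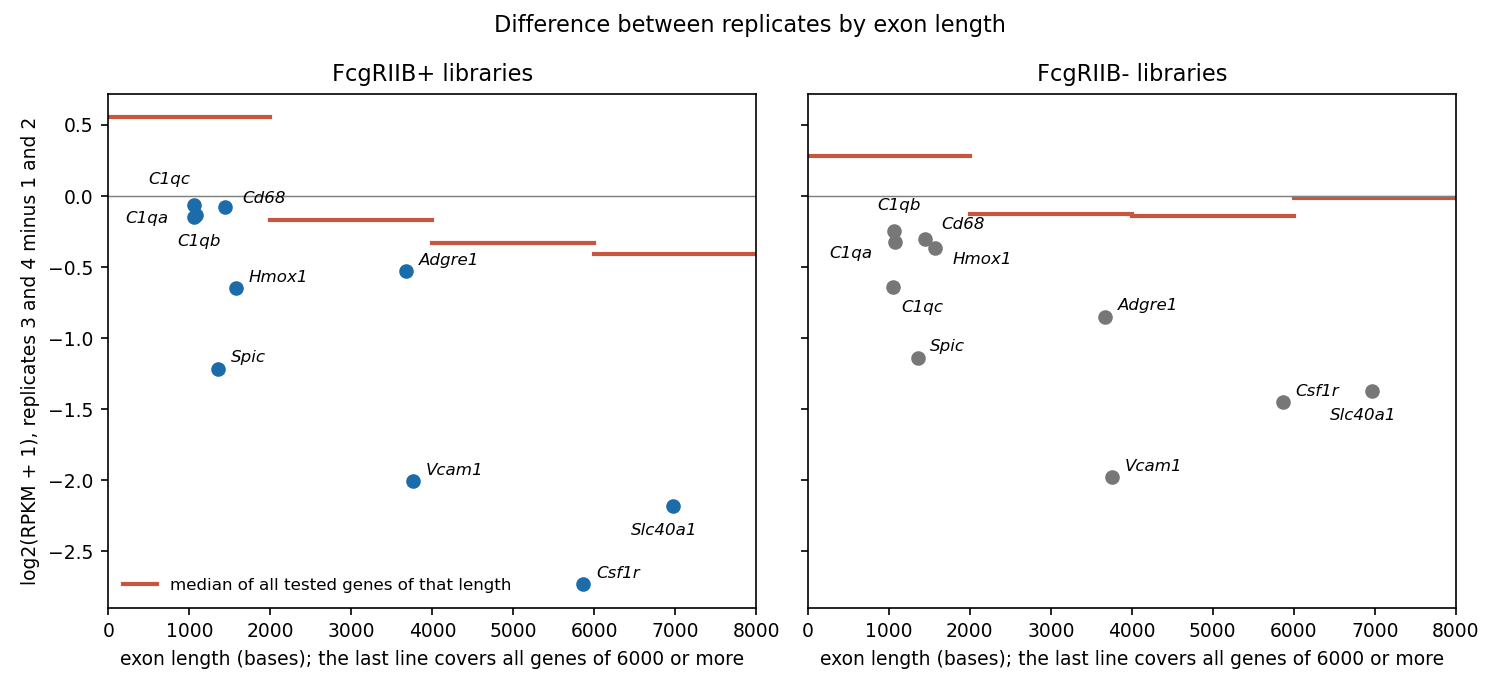
Mean log2(RPKM + 1) of replicates 3 and 4 minus that of replicates 1 and 2 against exon length in bases, for the 10 genes (points) in FcgRIIB-positive (left) and FcgRIIB-negative (right) libraries, with red lines for the median of all tested genes of that length. All points lie below their line, and Csf1r in positive libraries is the lowest at -2.73.

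The 10 genes were chosen with the contrast known in all 8 libraries, so values within either set of replicates are a description only. With replicates 1 and 2 alone the median log2 fold change of the 10 genes was 3.02, and with replicates 3 and 4 alone it was 2.95. Csf1r had 3.62 in the first set and 2.33 in the second, and C1qa 2.79 and 2.98.

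The 10 genes fell into a C1q-like and a Vcam1-like profile by the root mean square difference between log2(RPKM + 1) profiles over the 8 libraries, each centred on its own mean. C1qb was nearest to Cd68 (0.19) and C1qa (0.22), ahead of its neighbour C1qc (0.26). Vcam1, Slc40a1 and Csf1r lay 0.30 to 0.38 from each other and 0.82 to 1.10 from the C1q genes and Cd68. Hmox1 lay nearer to the C1q genes and Cd68 (0.39 to 0.45) than to Vcam1, Slc40a1 and Csf1r (0.76 to 0.93). Spic and Adgre1 lay apart from most, at 0.55 or more and 0.49 or more from any of the others. All profiles share the same 8 libraries and their depths, and these distances carry no test.

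**Figure D4:**
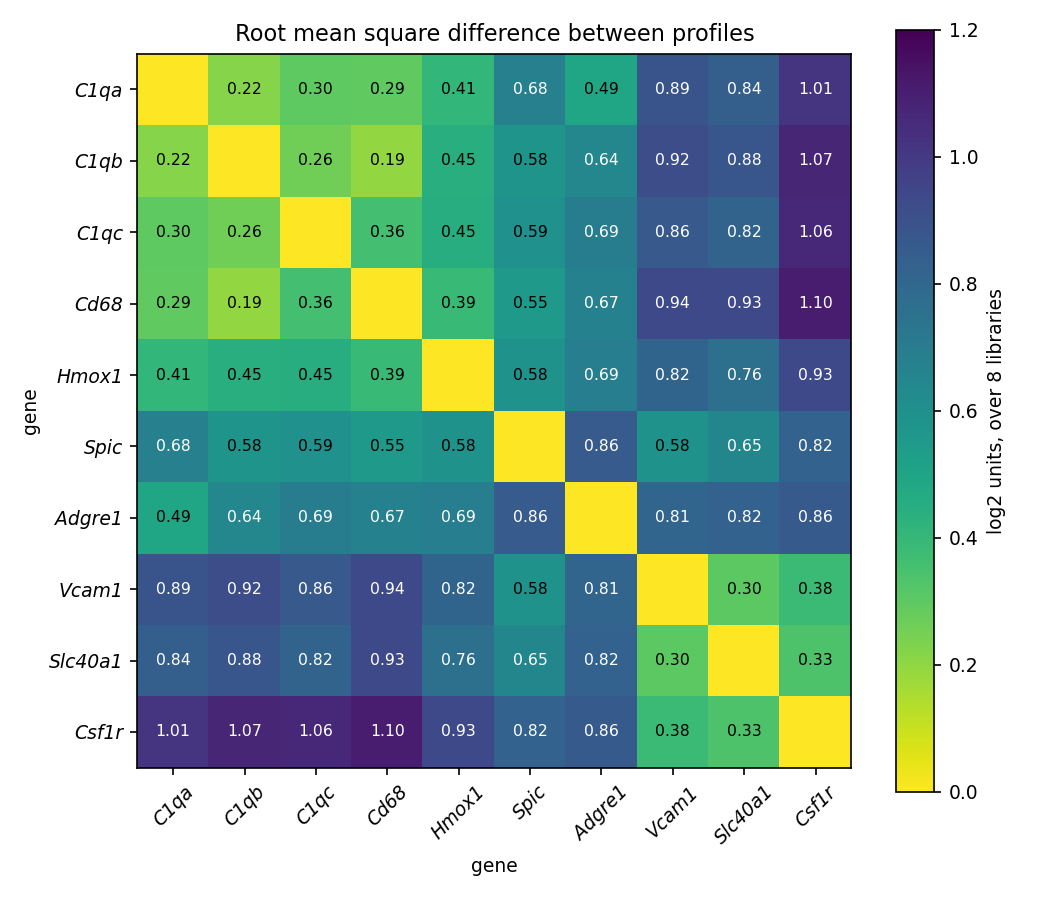
Root mean square difference, in log2 units over 8 libraries, between the centred log2(RPKM + 1) profiles of each pair of the 10 genes; lighter cells mark more similar profiles. C1qa, C1qb, C1qc and Cd68 form one light block, with values up to 0.36, and Vcam1, Slc40a1 and Csf1r another, with values up to 0.38.

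Among genes outside the 10, the one nearest to their mean profile was Cfp, which codes for properdin, a stabiliser of the alternative complement pathway (0.09). Hpgd, a prostaglandin-degrading enzyme, followed at 0.19 and Lyn, a kinase of myeloid and B cells, at 0.26. C1qc was nearest to Apoe, the gene of apolipoprotein E (0.14), which had 174.0, 345.2, 261.0 and 240.4 RPKM in positive replicates 1 to 4, against 29.3, 118.8, 27.1 and 36.1 RPKM in negative replicates 1 to 4. Apoe, like C1qc, was highest in replicate 2 of both groups. Vcam1 was nearest to Trf, the gene of the iron carrier transferrin (0.23). Hmox1 was nearest to Rab32, a GTPase of lysosome-related organelles (0.23), and Cd68 to Napsa, an aspartic protease (0.23). Csf1r and Slc40a1 shared their nearest gene, Nfam1 (0.30 and 0.29), a receptor with an activation motif.

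Other red pulp macrophage genes, from a list of 15 that holds none of the 10, were tested. That list and the related lists that follow were chosen with earlier results of these data known. Their calls are therefore no independent test of the contrast. Limma, with Benjamini-Hochberg adjustment over all 11946 genes, called 5 of the 15 higher in positive libraries, where 3.03% of all genes were. The 5 were Treml4, Fcna, Sirpa, Nr1h3 and Cd5l, and the fit with the pool as a block called 14 of the 15, where it called 7.22% of all genes. No member was called lower (0 at an unadjusted p under 0.05, and 0 with the block), and the median log2 fold change was 1.79. Treml4, a receptor for dead cells, had 140.7, 164.6, 91.1 and 63.2 RPKM in positive replicates 1 to 4, against 4.95, 15.6, 3.05 and 9.26 RPKM in negative replicates 1 to 4 (log2 fold change 3.76, SE 0.47, limma adjusted p = 0.00106). Its groups did not overlap, which was so for 8 of the 15, against 4.61% of all genes tested.

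Fcna, the ficolin A gene, whose product recognises sugars for the lectin complement pathway, had a log2 fold change of 2.34 (limma adjusted p = 0.00984). It was at 105.0 to 177.5 RPKM in positive, against 14.0 to 56.3 RPKM in negative libraries. Sirpa, the receptor for the "do not eat me" signal CD47, Nr1h3, the nuclear receptor LXR alpha, and Cd5l, a secreted macrophage protein, had log2 fold changes of 2.98, 2.41 and 2.19. With the block their limma adjusted p was 3.1e-08, 1.13e-05 and 5.21e-06. In the fit without the block all 3 lost their call without negative replicate 3, with limma adjusted p of 0.0513, 0.0673 and 0.0673. Over all alternatives their largest values were 0.0610, 0.0800 and 0.0855. Mrc1, Axl and Cd163, singled out with their values in view, showed log2 fold changes of 2.18, 2.21 and 1.59 and were called with the block alone of these 2 fits (limma adjusted p = 0.000446, 2.36e-05 and 0.00413, with values up to 0.667, 0.353 and 0.83 over all alternatives). Cd163, the receptor for haemoglobin bound to haptoglobin, was at 2.37 to 11.3 RPKM in positive, against 0.478 to 2.81 RPKM in negative libraries. Marker genes of marginal zone macrophages were low in both groups, with Marco, Cd209b and Siglec1 summing to 9.84 to 15.4 RPKM in positive, against 1.89 to 17.0 RPKM in negative libraries.

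Of 37 genes of iron and haem handling, 30 were tested, and 2 (6.67%) were called higher, against 3.03% of all genes. With the block 4 (13.3%) were called higher, against 7.22% of all genes. None was called lower by limma (0 at an unadjusted p under 0.05, and 0 with the block), and the median log2 fold change was 0.25. Trf had 253.8, 267.8, 88.7 and 85.8 RPKM in positive replicates 1 to 4, against 17.8, 50.1, 6.54 and 12.9 RPKM in negative replicates 1 to 4 (log2 fold change 3.09, SE 0.60, limma adjusted p = 0.0135). Slc11a1, the NRAMP1 metal transporter of phagosomes, was at 41.6 to 120.8 RPKM in positive, against 4.25 to 27.7 RPKM in negative libraries (log2 fold change 2.60, limma adjusted p = 0.0187). With the block both were called (limma adjusted p = 1.1e-08 for Trf and 1.78e-05 for Slc11a1). In the fit without the block neither was called without negative replicate 3, with limma adjusted p of 0.0633 for Trf and 0.0905 for Slc11a1. The largest values over all alternatives were 0.0655 and 0.261. The call of Slc11a1 also ended without positive replicate 1, positive replicate 2 or negative replicate 1. Blvrb, a biliverdin reductase of the haem breakdown path, had a log2 fold change of 2.19 and was called with the block (limma adjusted p = 2.41e-05), as was the haem transporter gene Slc48a1 at 0.93 (limma adjusted p = 0.0139). Over all alternatives their limma adjusted p reached 0.167 and 0.776. Blvrb and Slc48a1, like the ferritin genes that follow, were singled out with their values in view.

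The ferritin genes Ftl1 and Fth1 were far more abundant than Hmox1 and Slc40a1 without passing the test, at log2 fold changes of 1.02 (SE 0.57) and 0.55 (SE 0.54). Ftl1 had 1840.5, 1993.2, 4141.1 and 5085.6 RPKM in positive replicates 1 to 4, against 771.6, 1460.9, 2250.3 and 1813.9 RPKM in negative replicates 1 to 4. It was higher in replicates 3 and 4 than in replicates 1 and 2 in both groups, the reverse of Slc40a1. Ftl1 has 1117 bases of exon and Slc40a1 6966. Over all genes under 2000 bases the median of replicates 3 and 4 minus 1 and 2 was 0.56 in positive and 0.28 in negative libraries. From 6000 bases it was -0.41 and -0.02. The part of exon length in this contrast was not tested. Both ferritin genes have processed copies that can share reads, so their values are uncertain. Haemoglobin transcripts were also abundant: 11 erythroid markers of the table summed to 4616, 4244, 11200 and 22316 RPKM in positive replicates 1 to 4, against 3589, 4708, 8410 and 3940 RPKM in negative replicates 1 to 4. This sum was higher in positive libraries in 3 of 4 pools, not in pool 2, and no erythroid marker was called by limma (5 higher at an unadjusted p under 0.05, 4 with the block). Hba-a2, Hbb-bs and Hbb-b1, the most abundant, have near-identical copies, and the sources used here do not say how reads were split between them. The part of red cell transcripts in the level of the 10 genes was not tested.

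Of 32 genes of the complement system or of C1q binding partners, 21 were tested, and limma called 1 (4.76%) higher, close to the 3.03% of all genes. That was Cfp, at 226.3, 270.1, 115.7 and 107.5 RPKM in positive replicates 1 to 4, against 15.8, 54.2, 11.2 and 20.6 RPKM in negative replicates 1 to 4 (log2 fold change 2.91, SE 0.51, limma adjusted p = 0.00745). With the block 5 (23.8%) were called higher, against 7.22% of all genes, and 1 (4.76%) lower, against 3.85%, which was Cd55, a surface regulator that breaks up complement convertases (log2 fold change -1.09, block limma adjusted p = 0.00291, up to 0.639 over all alternatives). The list's median log2 fold change was 0.82. None was called lower without the block (1 at an unadjusted p under 0.05). C3, C2 and C4b, components that act after C1q, had log2 fold changes of 0.97, 0.72 and 0.82 without a call in either fit. The highest mean among them was that of C3 in positive libraries, at 7.15 RPKM. C6, which also acts after C1q, had 1.54 and was called with the block (limma adjusted p = 0.00477, up to 0.788 over all alternatives). Its mean was 14.9 RPKM in positive, against 3.47 RPKM in negative libraries. Besides Cfp and C6, the block fit called Itgax, Cfb and Lair1 higher (limma adjusted p = 0.000117, 0.0341 and 0.0356). Calr, which codes for calreticulin, a C1q binding protein also found in most cells, was at 161.3 to 345.2 RPKM in positive, against 108.3 to 213.6 RPKM in negative libraries and did not pass (log2 fold change 0.53). Those other than Cfp were singled out with their values in view.

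A list of 15 genes joined ligands and signalling genes of the CSF1 receptor with other growth factor receptors and myeloid transcription factors. Of these, 14 were tested, and 5 (35.7%) were called higher, with or without the block. None was called lower (0 at an unadjusted p under 0.05). Of all genes 3.03% were called higher, and 7.22% with the block. The median log2 fold change was 0.84. Irf8, a transcription factor of monocytes and dendritic cells, had 148.0, 258.5, 126.4 and 121.7 RPKM in positive replicates 1 to 4, against 14.9, 22.1, 6.57 and 15.7 RPKM in negative replicates 1 to 4 (log2 fold change 3.42, SE 0.42, limma adjusted p = 0.000869). Spi1, the gene of PU.1, had 64.4, 193.0, 137.4 and 133.2 RPKM in positive replicates 1 to 4, against 2.97, 32.9, 4.18 and 16.4 RPKM in negative replicates 1 to 4 (log2 fold change 3.56, limma adjusted p = 0.00862). Negative replicate 2 was again the highest negative library for both. The GM-CSF receptor genes Csf2ra and Csf2rb had log2 fold changes of 3.77 and 2.88, and Plcg2, a phospholipase downstream of many myeloid receptors, of 1.98. With the block the limma adjusted p of Csf2rb was 5.36e-06 and that of Plcg2 8.21e-06. In the fit without the block they were 0.0544 and 0.142 without negative replicate 3, against largest values of 0.125 and 0.176 over all alternatives. Plcg2 also lost its call without positive replicate 1 or 2 or negative replicate 1 or 2. Csf1, the gene of a ligand, stood at 3.44 to 15.6 RPKM in positive, against 1.18 to 7.90 RPKM in negative libraries. It did not pass (log2 fold change 1.01). The signalling genes Cbl, Grb2 and Pik3cd did not pass in either fit, at log2 fold changes of -0.03, 0.12 and 0.05. Csf1 and these signalling genes were singled out with their values in view.

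Among 14 tested partners of VCAM1 and relatives of F4/80 and CD68, limma called Cd63 (7.14%) higher, against 3.03% of all genes, and none lower (1 at an unadjusted p under 0.05), with a median log2 fold change of 0.20. The median lay between -0.07 and 1.07 over the alternatives, so its sign was not fixed. With the block 3 (21.4%) were called higher and 1 (7.14%) lower, against 7.22% and 3.85% of all genes. Counts of 1 to 3 genes leave these shares imprecise. Cd63, a tetraspanin of late endosomes, had 41.3, 120.3, 172.4 and 184.6 RPKM in positive replicates 1 to 4, against 3.18, 19.6, 3.68 and 5.70 RPKM in negative replicates 1 to 4 (log2 fold change 3.97, SE 0.58, limma adjusted p = 0.00265). Unlike Vcam1, its positive libraries were highest in replicates 3 and 4. Cd63 has 1033 bases of exon and Vcam1 3758, and the part of exon length was not tested. The genes of the VCAM1 receptor chains, Itga4 and Itgb1, which T cells also express, did not pass, at log2 fold changes of 0.77 and -0.37. Adgre4, a close relative of Adgre1, had a log2 fold change of 2.85 and was called with the block (limma adjusted p = 7.25e-06, against 0.0507 without it and up to 0.186 over all alternatives). Itga4, Itgb1 and Adgre4 were singled out with their values in view.

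**Figure D5:**
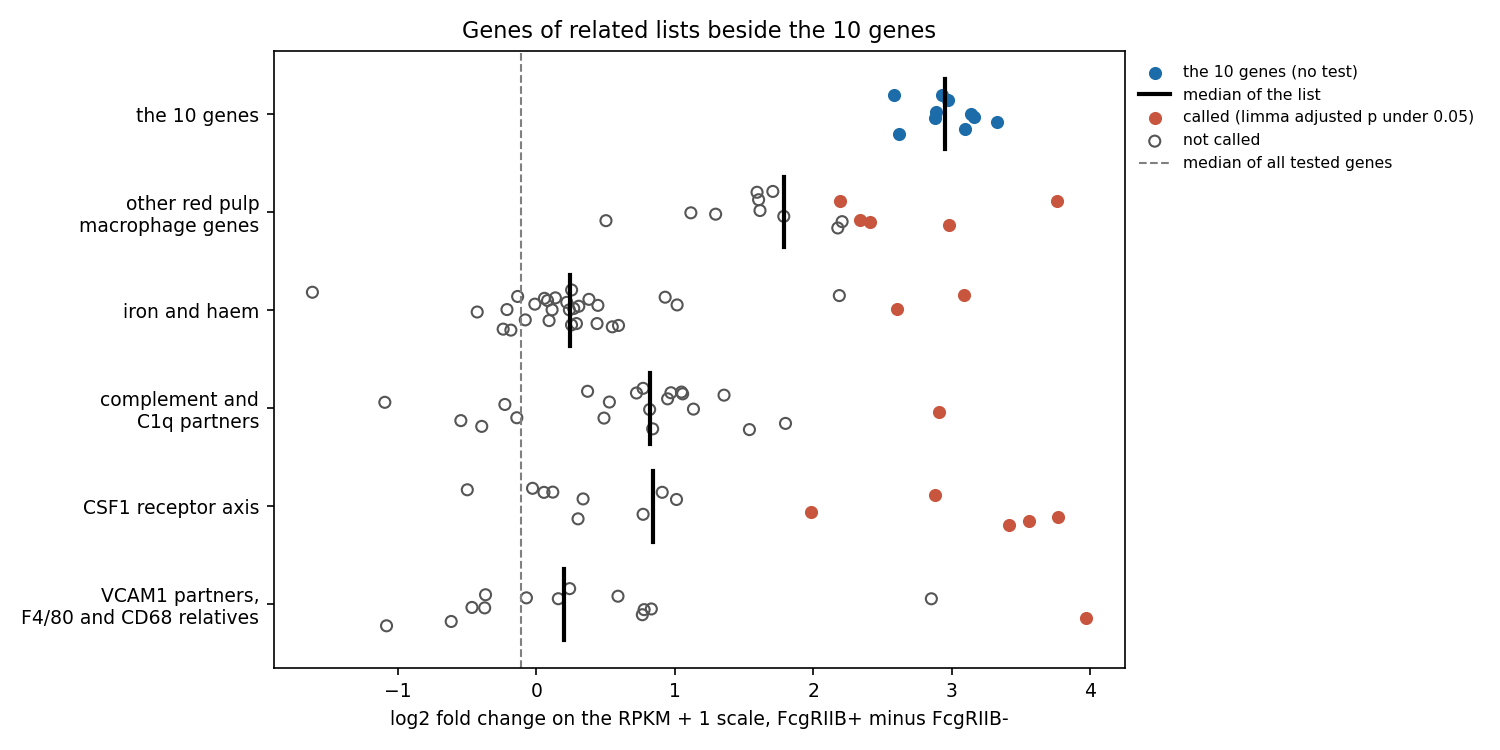
Log2 fold change on the RPKM + 1 scale, FcgRIIB-positive minus FcgRIIB-negative, for the 10 genes (blue, no test) and for the genes of 5 related lists, filled where limma called them and open where it did not. Black bars mark list medians, which run from 0.20 to 1.79 for the related lists, and the dashed line the median of all tested genes at -0.11.

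Markers of other cells moved between the same libraries. Of all genes tested, 3.03% were called higher and 0.268% lower, and with the block 7.22% and 3.85%. All 12 dendritic cell markers, chosen with earlier results known, were called higher, with a median log2 fold change of 4.00. They summed to 655.7 to 1196 RPKM in positive, against 32.5 to 101.4 RPKM in negative libraries. Tlr3, Clec10a, Siglech and Zbtb46 were below 1 RPKM in negative replicates 1 to 3, so they passed the filter through positive libraries. Of these 12, Naaa was at 121.5 to 240.7 RPKM in positive, against 5.40 to 13.5 RPKM in negative libraries, and Clec10a was at 0 in negative replicate 1. The 10 red pulp macrophage genes summed to 1179 to 1936 RPKM in positive, against 112.8 to 434.9 RPKM in negative libraries. Dendritic cells of the spleen also express some of the 10, among them Cd68 and the C1q genes. T cell markers had a median of -0.96, with 0 of 16 passing limma's adjusted threshold (6 were lower at an unadjusted p under 0.05 and 7 were called lower with the block), and their sum was lower in positive libraries in 4 of 4 pools. B lineage markers had a median of -0.70 over 6 tested genes, with Jchain called higher and none lower by limma (0 at an unadjusted p under 0.05, 1 with the block). Monocyte and neutrophil markers had a median of 0.09 and none called (1 higher at an unadjusted p under 0.05; 1 higher and 1 lower with the block). Their sums overlapped, at 1459 to 3797 RPKM in positive, against 2722 to 4443 RPKM in negative libraries. Ly6c2 alone stood at 587 to 2422 RPKM in positive, against 1431 to 3210 RPKM in negative libraries, a large part of these sums. The overlap therefore does not show that the other markers were alike, with log2 fold changes from -2.64 for Ngp to 2.19 for Lyz2. The part of each of these cell types in the level of the 10 genes was not tested.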

How the data were processed

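Poly(A) RNA was made into 8 mouse libraries by SMART-seq v4 amplification, per the labels' protocols. The authors deposited RPKM values per gene, per the file headers. The submitters' processing notes name TopHat2 and mm9; read assignment and use of strand are not given in the sources used here. Every gene of the table reached 3 RPM in at least 4 libraries. Symbols of 21 genes turned into dates were restored by Entrez ID. Depth was recovered from the steps of low RPKM values; all low values came out whole within 0.1 reads (100%). Amplified reads are not independent molecules, and the replicate spread sets the errors.

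Genes that reached 1 RPKM in 4 or more libraries (11946, leaving out 1258) were tested with limma 3.58.1 under R 4.3.3 (lmFit, eBayes with trend) on log2(RPKM + 1), two-sided, with the group as the only term, Benjamini-Hochberg adjustment over these genes and a threshold of 0.05. The steps were tested on simulated data. Replicate numbers pair the groups, since each marks 1 pool of spleens per the series design; the correlation of deviations from the group means was 0.70, 0.41, 0.56 and 0.68 in pairs 1 to 4. Alternatives were the replicate block, other pseudocounts, no filter, other scalings, subsets of replicates and each library left out. SE and p-values of the main fit measure the spread between libraries within a group. Only p-values of the block fit measure how the difference within a pool varied between pools.

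The 10 genes and all lists were chosen with earlier results of these data known. From each related list the called genes with the smallest p (up to 5) were named, from marker lists the most abundant, and the nearest profiles for the 10 genes. Coordinates are those of GRCm38.p6 sequences, since the table has none; 13187 of its gene IDs matched that reference.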

Additional observations from a re-analysis of the deposited data

Results flagged for a closer look

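Of the 48 groups of 4 libraries examined for the named genes, 1 held a library far from the other 3, where chance alone flags about 1 in 20. It was Spic in FcgRIIB-negative libraries, at 30.5 RPKM in negative replicate 2 against 3.20, 3.70 and 4.82 RPKM in negative replicates 1, 3 and 4, with the gap to the next library at 0.84 of the range on the log2(RPKM + 1) scale.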

How the results depend on the processing

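The log2 fold change of each of the 10 genes stayed above 0 in all 18 alternatives, between 2.09 and 4.11. Their median, 2.95 as reported, lay between 2.57 and 3.12 in the alternatives with all libraries or with 2 replicates, except 3.80 after rescaling to T cell markers, and between 2.69 and 3.37 with 1 library left out. Rescaling to the T cell markers or to a common sum of RPKM was chosen after seeing the data; the first moved the median of all genes from -0.11 to 0.63.

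Counts of calls depended more on the processing, and the cause was not tested. Genes higher numbered 362 as reported, 863 with the replicate block, 875 with replicates 1 and 2 only, 220 after rescaling to a common sum of RPKM, 900 after rescaling to T cell markers and 178 (without negative replicate 3) to 503 with 1 library left out. Genes lower numbered 32 as reported, 19 with median ratios, 460 with the replicate block, 142 with replicates 1 and 2 only, 11 with replicates 3 and 4 only, 8 with the common sum, 2 with the T cell scaling and 5 to 45 with 1 library left out.

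With the replicate block, which follows the pairing by spleen pool, calls were 14 among the other red pulp macrophage genes (5 as reported), 4 among iron and haem genes (2), 5 among complement genes (1) and 3 among VCAM1 partners (1). The T cell scaling gave 13, 4, 5 and 3 for the same lists. The common sum gave 2 red pulp and 1 iron gene. Replicates 1 and 2 only gave 13 red pulp, 9 complement and 2 VCAM1 partner genes. Replicates 3 and 4 only gave 2 complement and 2 VCAM1 partner genes, and 3 of the CSF1 receptor and myeloid factor list (5 as reported). A pseudocount of 0.1, no filter and median ratios each gave 2 VCAM1 partner genes. With 1 library left out, calls were 2 to 9 red pulp, 0 to 2 iron, 1 to 3 complement and 1 to 2 VCAM1 partner genes. The CSF1 receptor and myeloid factor list then had 3 to 5. The 0 iron genes were without negative replicate 3. The depth of negative replicate 4, 3060000 reads, limits values near 20 reads there.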
